A study of Homo sapiens with 14 samples.

Results

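Solute carriers are the largest family of membrane transporters in human cells, and their genes carry the symbol SLC, a family number, the letter A and a member number. They were chosen here as every gene whose symbol begins in that way in either of the authors' deposited tables. This gave 171 of 12202 genes, of which 162 were among the 11261 genes of the siRNA table, 165 among the 11835 of the deletion table and 156 in both. By name, 161 of them encode transporters and 10 do not. The transporters were sorted by cargo into 9 classes, with 38 mitochondrial, 24 amino acid, 24 metal, 21 inorganic ion and pH, 16 other organic, 13 sugar, 10 vitamin and choline, 9 nucleoside and nucleotide sugar and 6 monocarboxylate carriers.

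Solute carriers move nutrients, ions and metabolites down a gradient or against it by coupling to another solute, and they sit in the plasma membrane or in the membranes of organelles. Most carriers of the SLC25 family lie in the inner mitochondrial membrane, and all of them are counted here as mitochondrial. SLC39 proteins bring zinc into the cytosol and SLC30 proteins take it out. Endothelial cells line blood vessels, take most of their energy from glycolysis, and import glucose through SLC2 carriers and arginine, the substrate of nitric oxide synthase, through SLC7 carriers.

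The study asked what an enhancer at a coronary artery disease locus does for CALCRL, the calcitonin receptor-like receptor, in endothelial cells. All 14 libraries came from teloHAEC, a line of human aortic endothelium kept dividing by telomerase. The first comparison, called the siRNA arm, set 4 libraries from cells transfected with siRNA against CALCRL beside 4 from cells given scrambled siRNA, lysed at 24 hours. For the second, called the deletion arm, 3 libraries from cells electroporated with Cas9 and guides that flank the enhancer were compared with 3 from cells given Cas9 and a guide against HPRT, with RNA taken 2 days later. The deletion group is a population of transfected cells and no clone is named, so cells without the deletion may be among them, and the control cells carry Cas9 cuts of their own. No label says that the replicates came from separate cultures, so p-values measure only the spread between these libraries, which may be technical.

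Each arm is known only through the authors' DESeq2 comparison, which gives 1 mean normalised count, 1 log2 fold change and its standard error (SE) per gene and no value for a single library. Depth per library is therefore unknown, and whether the groups of libraries overlap cannot be shown. The level of a gene in each group was instead computed from its mean and its fold change, and is called an implied mean below. A gene counts as called, higher or lower, where its adjusted p-value, as the authors' deposited table has it, is under 0.05. CALCRL itself had log2 fold changes of -1.56 (SE 0.17) with siRNA and -1.47 (SE 0.43) with the deletion in the authors' deposited tables, and HPRT1 had -0.02 and -0.09. The median SE over all genes was 0.17 for siRNA and 0.41 for the deletion, so a change of a given size was easier to call after siRNA. Of 10 endothelial markers, all but PECAM1, 9 were listed in each table, and none was called after siRNA. By the authors' deposited tables, CDH5 (log2 fold change -1.44) and KDR (-1.05) were lower after the deletion, where 15.8% of all genes were called. The others were not called there, with TEK at -0.49, ERG -0.47, NOS3 -0.12, EMCN -0.01, TIE1 0.09, CLDN5 0.45 and VWF 0.54. Of 14 markers of smooth muscle, fibroblasts, leukocytes and epithelium, 5 were listed, none of them from fibroblasts, with summed mean counts of 2762 for siRNA and 3370 for the deletion. Of these 5, KRT18 (1.13) was higher after the deletion, by the authors' deposited tables, and its part in the results on carriers was not tested. In such bulk RNA, fewer cells of a type and less RNA per cell cannot be told apart.

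After CALCRL siRNA, few carriers changed. The authors' deposited table called 9 of 162 (5.56%), against 3.46% of all genes, with 4 higher (1.05% of all genes) and 5 lower (2.42%). With the trend of fold change on the GC content of the transcript end removed, 5 were higher and 4 lower. Of all genes, 121 were higher and 248 lower under that setting. The changes of the 9 carriers were small, with log2 fold changes between -0.81 and 0.95. Over all 162 the median was 0.04, against 0.00 over all genes, and 72 lay below 0. With a Student t reference on 6 degrees of freedom in place of the normal one, none of the 9 was called. Under it 19 carriers had an unadjusted p under 0.05, as did 774 of all 11261 genes, of which 5 were called. With the Wald statistics divided by their robust SD over all genes, 1.11, which was 1.88 for the deletion, 5 carriers were called.

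**Figure D1:**
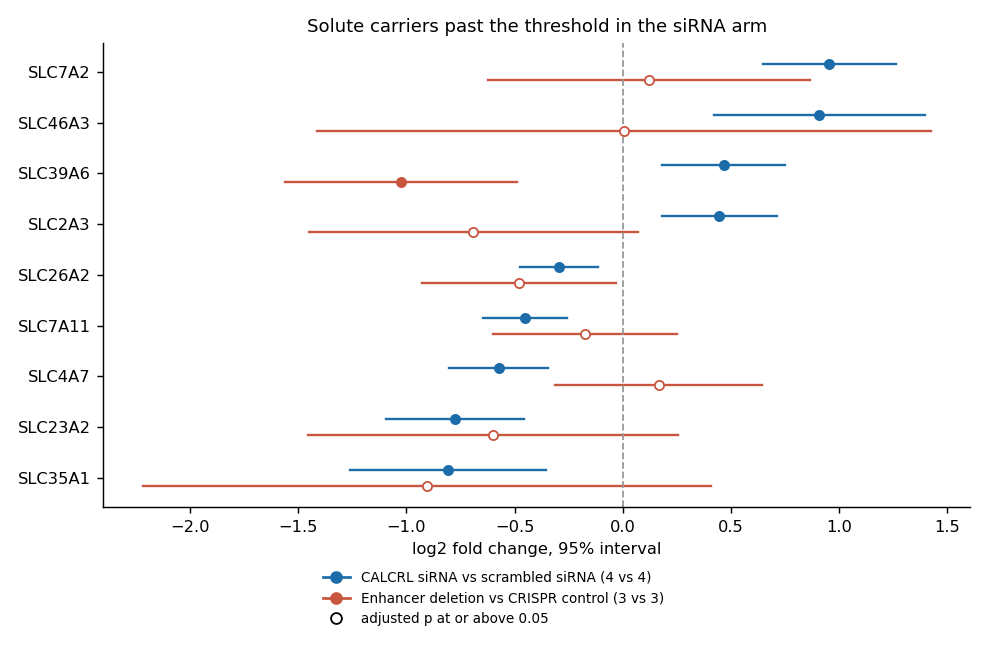
Log2 fold change with its 95% interval for the 9 carriers called in the siRNA arm (4 against 4 libraries), drawn beside their value in the deletion arm (3 against 3). The siRNA intervals are narrow, and they exclude 0 because the genes were chosen by the same test. Of these 9 only SLC39A6 was also called in the deletion arm, on the other side of 0.

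The 5 carriers lower after CALCRL siRNA were SLC7A11, SLC4A7, SLC26A2, SLC35A1 and SLC23A2, whose cargoes are cystine, bicarbonate, sulphate, CMP-sialic acid and vitamin C. The 4 higher were SLC7A2, SLC46A3, SLC39A6 and SLC2A3. The lower ones were examined for a short word in their 3′ untranslated regions, where siRNAs and miRNAs pair with partly matching messages. The word GTAACAA had been picked out of these same tables as common in genes that were lower, so its presence is a description and supports nothing. It was searched on the transcript strand of the GENCODE 29 (GRCh38) transcript with the longest 3′ untranslated region. It occurred in 4 of the 5 lower carriers, in none of the 4 higher and in 19 of 151 not called (12.6%). Over all genes it occurred in 10.7%, and in 56.4% of those lower. The sites are printed because 4 of the 5 carriers lower after siRNA share them, each with 11 bases on either side and the word in capitals.
SLC7A11 (chr4:138168322-138168350, minus strand): atggactgaagGTAACAAtattttaatgt
SLC4A7 (chr3:27375653-27375681, minus strand): catttggaaaaGTAACAAatagagtaaat
SLC4A7 (chr3:27374758-27374786, minus strand): ggacatcagggGTAACAActgtacttact
SLC35A1 (chr6:87511834-87511862, plus strand): acaatactcaaGTAACAAggtttgggaca
SLC23A2 (chr20:4856895-4856923, minus strand): ttccttgctgaGTAACAAgaagtaaaata
SLC23A2 (chr20:4853706-4853734, minus strand): ccgttttcatgGTAACAAattcgcacaga
SLC23A2 (chr20:4852712-4852740, minus strand): tttgttcgttaGTAACAAtcttcatttga

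SLC26A2 was the lower carrier without the word. SLC7A11 and SLC35A1 held 1 copy, SLC4A7 2 and SLC23A2 3. Of 23 carriers with the word, 4 were called lower and 12 lay below 0 after siRNA, with a median log2 fold change of -0.03. Of 137 without it, 1 was called lower and 59 lay below 0, with a median of 0.05. The 3′ untranslated regions of the 23 carriers with the word were longer, with a median of 3480 bases against 1595. Among the 4 carriers that rose, SLC7A2 held 2 copies of another word picked out of these tables, GACGTA, which 5.34% of all genes and 27.8% of those higher hold. The part of these words in the fold changes was not tested.

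In the deletion arm more carriers changed, as did more genes of all kinds. The authors' deposited table called 25 of 165 (15.2%), against 15.8% of all genes, with 10 higher (7.4% of all genes) and 15 lower (8.44%). The share of carriers called was thus near that of all genes. Their median log2 fold change was -0.16, against 0.00 over all genes, and 92 of 165 lay below 0. With the GC trend removed, 22 were called, 2 higher and 20 lower. Of all genes, 11.7% were called under that setting, 399 higher and 964 lower. Of the 10 higher carriers 1 kept its call under that setting, and of the 15 lower 14 did. No carrier was called with a Student t reference on 4 degrees of freedom (21 at an unadjusted p under 0.05) or with Wald statistics divided by their robust SD (9 at an unadjusted p under 0.05). None of 11830 genes was called in either case, with 1646 and 534 of them at an unadjusted p under 0.05.

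**Figure D2:**
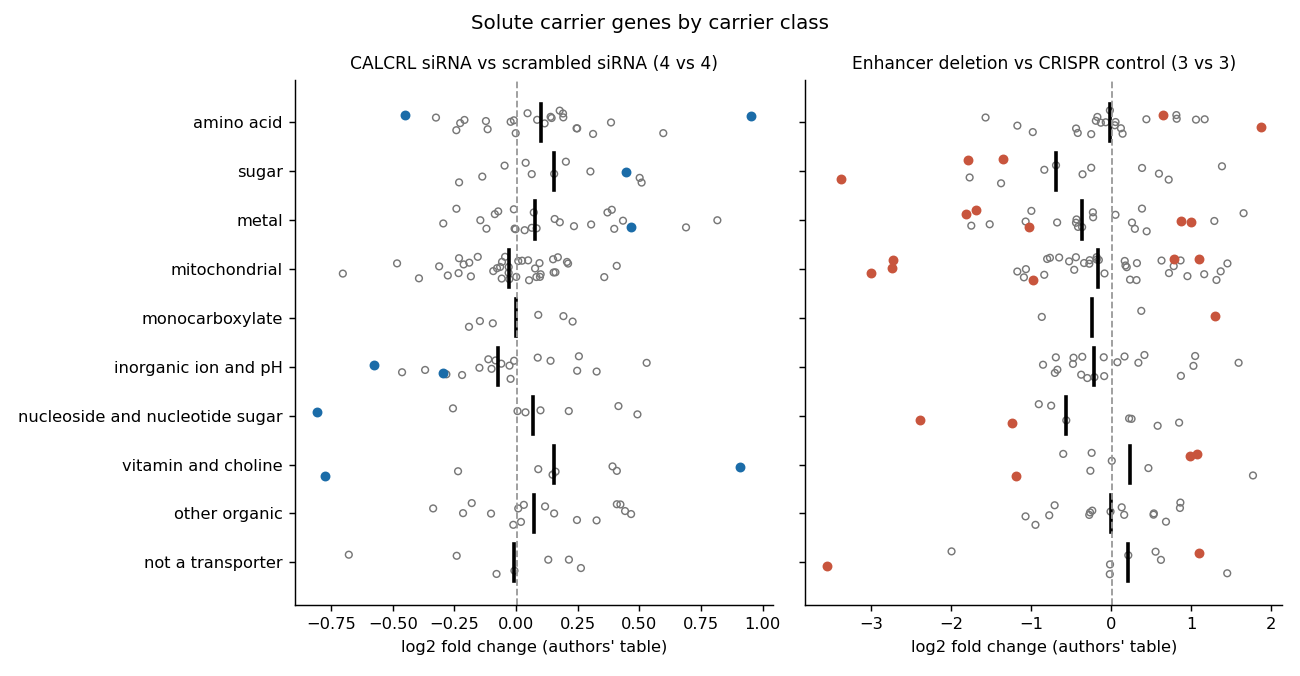
Log2 fold change of each solute carrier gene by class in the siRNA arm (4 against 4 libraries) and the deletion arm (3 against 3), with 1 point per gene, filled where the adjusted p-value was under 0.05, a bar at the class median and a dashed line at the median of all genes, on different horizontal scales and without points for the 4 genes at or under 3 implied counts in a group. The points spread more widely in the deletion arm, and the sugar class has the lowest median there, at -0.69. Its SLC2 members alone have a median of -0.05 there.

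Among amino acid carriers, the siRNA arm moved an importer of cationic amino acids up and the cystine importer down. By the authors' deposited tables, of 24 measured after siRNA 1 was higher and 1 lower, with a class median of 0.10, and 2 of 23 were higher and none lower after the deletion, with a median of -0.02. After the deletion 8 of the 23 had an unadjusted p under 0.05. So did 3513 of all 11830 genes, and 1354 of 11261 after siRNA. The unadjusted counts given for other classes below are read against these. Of all genes, 3.46% were called after siRNA and 15.8% after the deletion. SLC7A2, which carries arginine and lysine into cells, had an implied mean of 98.3 normalised counts with scrambled siRNA and 190 with CALCRL siRNA. That is 194% of the control level (95% interval 157% to 240%), and its log2 fold change of 0.95 (SE 0.16, adjusted p = 2.59e-07) had the lowest p of any carrier in the authors' deposited siRNA table. In the deletion arm it went from 132 to 144 implied counts, a log2 fold change of 0.12 (SE 0.38) that did not pass the test in the authors' deposited table. SLC7A1, the other cationic carrier measured, was at 635 and 674 implied counts in the siRNA arm and did not pass either. SLC7A11, which brings in cystine in exchange for glutamate and so feeds glutathione synthesis, fell from an implied 1812 to 1326 normalised counts after CALCRL siRNA. Its log2 fold change was -0.45 (SE 0.10, adjusted p = 0.000486) in the authors' deposited siRNA table and -0.17 (SE 0.22) in the deletion table.

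SLC3A2 is the heavy chain that takes SLC7A5, SLC7A6, SLC7A7, SLC7A8 and SLC7A11 to the cell surface. Its log2 fold changes of -0.23 after siRNA and 0.44 after the deletion did not pass either test in the authors' deposited tables, but their difference of -0.67 (SE 0.22, adjusted p = 0.0293) did. Of the 6 genes of these pairs, SLC7A11 was the only one called in either table. The glutamine carrier SLC38A2, with SLC7A11 and SLC3A2 among the 3 amino acid carriers of most counts, was at 1289 and 1115 implied counts in the siRNA arm and did not pass.

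Both amino acid carriers that rose after the deletion carry neutral amino acids or belong to a family that does. SLC1A4, an exchanger of alanine, serine and cysteine, went from 17.7 to 64.8 implied counts, and the authors' deposited table gives 1.87 (SE 0.68, adjusted p = 0.0417). SLC38A10 went from 395 to 620, with 0.65 (SE 0.24, adjusted p = 0.0455) in the authors' deposited table. With the GC trend removed they were 1.77 and 0.19 and were not called. SLC36A1, which exports amino acids from lysosomes, was the carrier just outside the threshold in the deletion arm, with -1.57 (SE 0.59, adjusted p = 0.0503) in the authors' deposited table.

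Among sugar carriers, a glucose importer was higher after siRNA and another was lower after the deletion. The authors' deposited tables called 1 of 11 after siRNA, higher (9.09%, against 3.46% of all genes). After the deletion they called 3 of 13, all lower (23.1%, against 15.8% of all genes). The class medians were 0.15 and -0.69. For the SLC2 family alone the median was -0.05 over 5 genes after siRNA. After the deletion it was -0.05 over 6 genes, with 3 above 0 and 3 below. SLC2A3, a high-affinity glucose importer, rose from an implied 175 to 238 counts after CALCRL siRNA, with a log2 fold change of 0.45 (SE 0.14, adjusted p = 0.0347) in the authors' deposited table. In the deletion arm it was at 245 and 152 implied counts, and its -0.69 (SE 0.39) did not pass in the authors' deposited table. SLC2A1, the basal glucose importer of most cells, fell there from 187 to 73.0 implied counts, which is 39.03% of control (95% interval 22.1% to 69.1%). Its log2 fold change was -1.36 (SE 0.42, adjusted p = 0.0152) in the authors' deposited deletion table and -0.23 (SE 0.17), not called, in the siRNA table. SLC2A6, a lysosomal hexose carrier, was the next by counts after siRNA (177 and 172 implied) and passed in neither.

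The other sugar carriers that fell after the deletion were SLC37A1 and SLC45A3. SLC37A1, which exchanges glucose 6-phosphate for phosphate in the endoplasmic reticulum, went from 50.8 to 4.89 implied counts, and -3.38 (SE 0.83, adjusted p = 0.00172) stands in the authors' deposited table. SLC45A3, of a family that carries sugar with protons, went from 148 to 42.5, with -1.80 (SE 0.57, adjusted p = 0.0174) in the authors' deposited table. For SLC2A3, SLC37A1 and SLC45A3 the difference between the arms passed its own test, at 1.14, 3.89 and 1.86, all with the higher value in the siRNA arm. SLC2A1 did not, with a difference of 1.13 (95% interval 0.24 to 2.02) and an adjusted p of 0.0749.

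Metal carriers held the only carrier called in both arms, a zinc importer that rose in 1 and fell in the other. The authors' deposited tables called 1 of 24 metal carriers after siRNA, higher (4.17%, against 3.46% of all genes). After the deletion they called 5 of 23, 2 higher and 3 lower (21.7%, against 15.8% of all genes). The class medians were 0.08 and -0.36. Of 11 zinc importers of the SLC39 family, 9 lay above 0 after siRNA with 1 called. Of the 10 measured after the deletion 6 lay below 0, with 1 called higher and 3 lower. Of all genes, 49.4% lay below 0 after siRNA and 49.7% after the deletion. SLC39A6 (chr18:36108532-36129385, GRCh38, minus strand), a plasma membrane zinc importer, was the carrier called in both arms, as were 47 of 10891 genes (0.432%). It rose from 167 to 231 implied counts after CALCRL siRNA (138% of control, 95% interval 113% to 168%) and fell from 290 to 143 after the deletion (49.2%, 33.9% to 71.4%). The log2 fold changes were 0.47 (SE 0.14, adjusted p = 0.0408) and -1.02 (SE 0.27, adjusted p = 0.00455) in the authors' deposited tables. Their difference of 1.49 (SE 0.31, adjusted p = 0.000219) had the lowest p of the 156 carriers compared between arms.

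SLC39A13, a zinc carrier of the Golgi and endoplasmic reticulum, had the most counts of the metal carriers in the siRNA table and fell after the deletion from 501 to 142 implied counts. SLC39A14, which brings in zinc, iron and manganese, fell there from 293 to 90.7. Their log2 fold changes were -1.82 (SE 0.47, adjusted p = 0.00298) and -1.69 (SE 0.45, adjusted p = 0.00442) in the authors' deposited deletion table. After siRNA neither passed, with 0.24 and -0.07 in the authors' deposited table. SLC39A7, which releases zinc from the endoplasmic reticulum, moved the other way after the deletion, from 328 to 597 implied counts, with 0.87 (SE 0.28, adjusted p = 0.019) in the authors' deposited table. With the GC trend removed it was 0.52 and was not called. SLC39A9, just outside the threshold after siRNA, went from 157 to 203 implied counts, with 0.37 (SE 0.12, adjusted p = 0.0509) in the authors' deposited table, and was called with the GC trend removed.

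None of the 6 zinc exporters of the SLC30 family was called by DESeq2 in either of the authors' deposited tables, with 1 at an unadjusted p under 0.05 after siRNA and 2 after the deletion. SLC48A1, a haem carrier of endosomes, went from 103 to 207 implied counts after the deletion. Its log2 fold change was 1.00 (SE 0.33, adjusted p = 0.0216) in the authors' deposited table, and 0.47, not called, with the GC trend removed. SLC41A3, a magnesium carrier, passed in neither arm, with 0.40 and -1.52 in the authors' deposited tables, but the difference of 1.92 (SE 0.66, adjusted p = 0.0334) did.

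**Figure D3:**
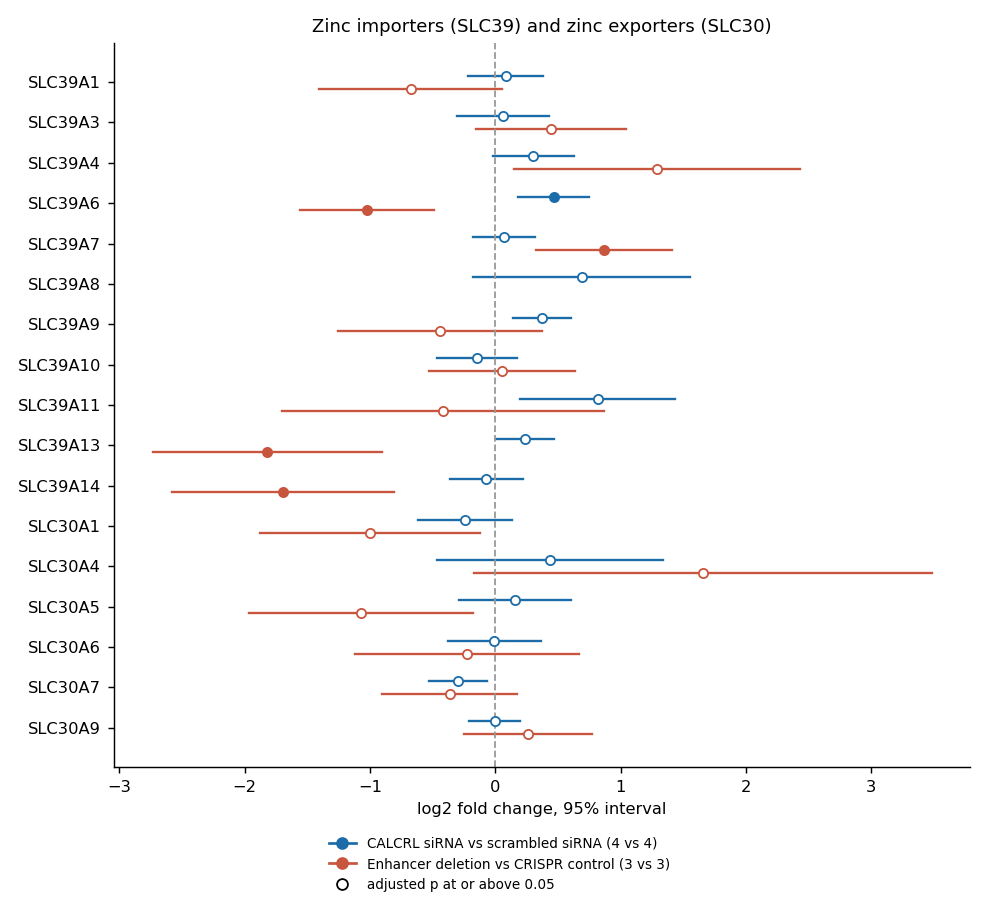
Log2 fold change with its 95% interval for each zinc importer (SLC39) and zinc exporter (SLC30), in the siRNA arm (4 against 4 libraries) and the deletion arm (3 against 3), with filled points where the adjusted p-value was under 0.05. SLC39A6 is filled on opposite sides of 0, and SLC39A13 and SLC39A14 are filled on the lower side in the deletion arm alone.

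Mitochondrial carriers of the SLC25 family did not pass the test after CALCRL siRNA, and after the deletion they were called as often as all genes. DESeq2 called 0 of 38 in the authors' deposited siRNA table, with 3 at an unadjusted p under 0.05. After the deletion 6 of 38 were called there (15.8%, against 15.8% of all genes), 2 higher and 4 lower. The class medians were -0.03 and -0.17. The ADP/ATP carriers, which exchange ADP and ATP across the inner membrane, went apart in the deletion arm. SLC25A6 rose from 1808 to 3110 implied counts there, with 0.78 (SE 0.21, adjusted p = 0.00399) in the authors' deposited table, but was 0.36 and not called with the GC trend removed. SLC25A5 fell from 1644 to 249, with -2.72 (SE 0.85, adjusted p = 0.0159) in the authors' deposited table. The remaining one, SLC25A4, was at 84.7 and 47.4 implied counts and did not pass.

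The SE of SLC25A5 was 3.48 times that of genes near it in mean count after the deletion and 3.55 times after siRNA. Its level after the deletion was 15.1% of control, with a wide 95% interval from 4.78% to 48.0%. SLC25A5P1, a processed pseudogene copied from SLC25A5, was listed in the deletion table alone and went from 40.9 to 3.47 implied counts, with -3.56 (SE 1.29, adjusted p = 0.041) in the authors' deposited table. Reads of a gene and its near-identical copy may be split between them, so both values are uncertain. SLC25A3, the phosphate carrier and second in counts among mitochondrial carriers in the siRNA table and first in the deletion table, was at 2087 and 2089 implied counts in the siRNA arm and passed in neither.

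Of the other mitochondrial carriers, SLC25A39, which brings glutathione into mitochondria, rose after the deletion from 310 to 661 implied counts. Its log2 fold change was 1.09 (SE 0.24, adjusted p = 0.000461) in the authors' deposited table, the lowest p of any carrier in that table, and 0.43, not called, with the GC trend removed. Its paralogue SLC25A40 fell there from 48.4 to 6.01, with -3.01 (SE 0.81, adjusted p = 0.00466) in the authors' deposited table. SLC25A22, a glutamate carrier, fell from 109 to 16.3 (14.9% of control, 95% interval 5.99% to 37.2%), with -2.74 (SE 0.67, adjusted p = 0.0017) in the authors' deposited table. SLC25A24, which exchanges ATP-Mg for phosphate, fell from 406 to 205, with -0.98 (SE 0.34, adjusted p = 0.0302) in the authors' deposited table, and was -0.71 and not called with the GC trend removed. The difference between the arms passed for SLC25A39, SLC25A40, SLC25A22, SLC25A5 and SLC25A6 and not for SLC25A24.

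**Figure D4:**
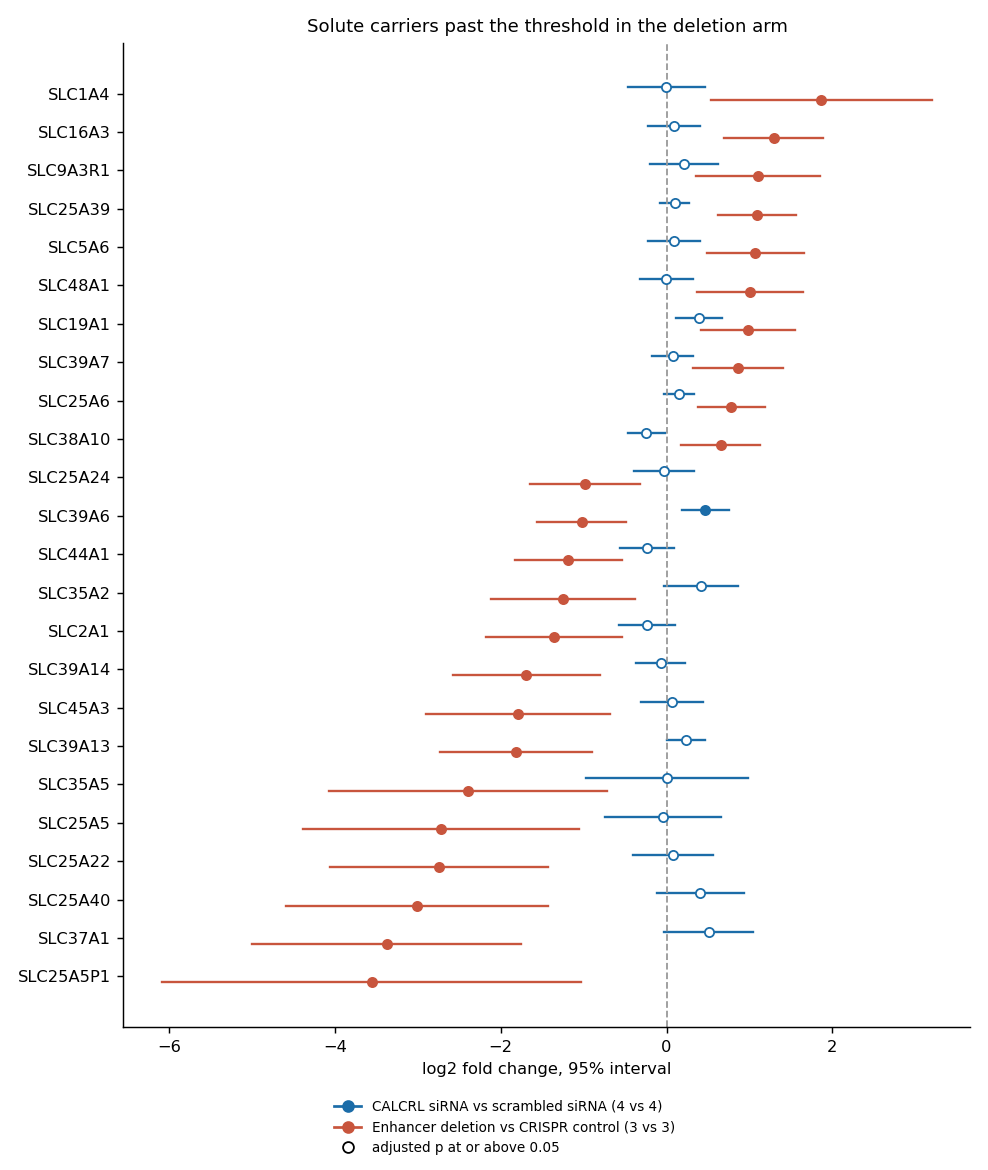
Log2 fold change with its 95% interval for the carriers called in the deletion arm (3 against 3 libraries), drawn beside their value in the siRNA arm (4 against 4 libraries), without SLC16A5, whose implied mean in the deletion group was under 3 counts. Intervals are wide on the lower side, where SLC25A5P1 (-3.56, deletion table alone) and SLC37A1 (-3.38) stand lowest. Each siRNA value drawn lies nearer to 0 than its deletion value. The genes were chosen by the deletion test, which favours large deletion values, so nothing is read from that.

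Of 4 monocarboxylate carriers measured in the deletion arm, 1 was higher and 1 lower, where 15.8% of all genes were called. In the authors' deposited siRNA table DESeq2 called 0 of 6, and 0 at an unadjusted p under 0.05. SLC16A3, which exports lactate from glycolytic cells, rose after the deletion from 545 to 1334 implied counts (245% of control, 95% interval 162% to 371%). The authors' deposited table gives 1.29 (SE 0.31, adjusted p = 0.00111), and with the GC trend removed the value was 0.55 and not called. SLC16A5 was called lower (adjusted p = 0.0492 in the authors' deposited table), but its implied mean in the deletion group was under 3 counts, so no fold is given. The upper end of its interval was 42.6% of control. The difference between the arms passed for SLC16A3 (-1.20, adjusted p = 0.0101) and not for SLC16A5 (adjusted p = 0.0752).

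Of 20 carriers of inorganic ions and pH, 2 were lower and none higher after siRNA, where 2.42% of all genes were lower. After the deletion 0 of 21 were called by DESeq2 in the authors' deposited table, with 5 at an unadjusted p under 0.05. SLC4A7, which brings in bicarbonate with sodium and so raises the pH of the cell, fell after CALCRL siRNA from 685 to 460 implied counts. Its log2 fold change was -0.57 (SE 0.12, adjusted p = 0.000106) in the authors' deposited siRNA table and 0.17 (SE 0.24) in the deletion table, and the difference of -0.74 (SE 0.27) passed its test (adjusted p = 0.0469). SLC26A2, a sulphate carrier, fell from 654 to 533, with -0.30 (SE 0.09, adjusted p = 0.044) in the authors' deposited table. It was -0.28 and not called with the GC trend removed. After the deletion it was at 935 and 671 implied counts, with -0.48 (SE 0.23), not called, in the authors' deposited table. The difference between the arms, 0.18, did not pass (adjusted p = 0.664). SLC9A8, a sodium/proton exchanger of the Golgi, passed in neither arm, with -0.46 and 1.03 in the authors' deposited tables, and its difference of -1.49 (SE 0.52, adjusted p = 0.0376) did.

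Of carriers of nucleosides and nucleotide sugars, 1 of 8 was lower after siRNA by the authors' deposited tables, and none was higher. After the deletion 2 of 9 were lower and none higher. Of all genes, 2.42% were lower after siRNA and 8.44% after the deletion. SLC35A1, which carries CMP-sialic acid, fell after CALCRL siRNA from 74.3 to 42.4 implied counts, with -0.81 (SE 0.23, adjusted p = 0.0197) in the authors' deposited table. After the deletion it was at 82.4 and 44.0, and its -0.91 (SE 0.67) did not pass in the authors' deposited table. SLC35A2, which carries UDP-galactose, fell after the deletion from 81.1 to 34.2, with -1.25 (SE 0.44, adjusted p = 0.0374) in the authors' deposited table. SLC35A5 fell from 66.7 to 12.7, with -2.39 (SE 0.85, adjusted p = 0.0379) in the authors' deposited table, and its SE after siRNA was 2.56 times that of genes near it in mean count. SLC35A3, a carrier of UDP-N-acetylglucosamine, passed in neither arm, with -0.26 and 0.85 in the authors' deposited tables, but the difference of -1.10 did (adjusted p = 0.0378). After the deletion it was 0.98 and called higher with the GC trend removed, and SLC29A1, a nucleoside carrier, was -1.16 and called lower.

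By the authors' deposited tables, vitamin and choline carriers held 1 higher and 1 lower of 8 after siRNA, where 3.46% of all genes were called. After the deletion they held 2 higher and 1 lower of 10, where 15.8% of all genes were called. SLC23A2, a sodium-coupled carrier of vitamin C, fell after CALCRL siRNA from 110 to 64.1 implied counts (58.4% of control, 95% interval 46.9% to 72.8%), with -0.78 (SE 0.16, adjusted p = 0.000161) in the authors' deposited table. SLC46A3, a lysosomal carrier, rose from 27.2 to 51.2, with 0.91 (SE 0.25, adjusted p = 0.012) in the authors' deposited table. After the deletion SLC5A6, which brings in biotin and pantothenate, rose from 126 to 265 and SLC19A1, the reduced folate carrier, from 121 to 240. Their log2 fold changes were 1.07 (SE 0.30, adjusted p = 0.00618) and 0.99 (SE 0.29, adjusted p = 0.0097) in the authors' deposited table. With the GC trend removed SLC5A6 was 0.86 and the only higher carrier that kept its call, and SLC19A1 was 0.13. SLC44A1, a choline carrier, fell from 829 to 365, with -1.19 (SE 0.33, adjusted p = 0.00659) in the authors' deposited table.

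The remaining organic solute carriers, among them fatty acid carriers of the SLC27 family, were not called by DESeq2 in either of the authors' deposited tables. At an unadjusted p under 0.05 there were 2 of 16 after siRNA and 1 of 15 after the deletion. Of the 10 genes that match by symbol but encode no transporter, SLC25A5P1 was lower and SLC9A3R1 higher after the deletion. SLC9A3R1 encodes a scaffold protein that binds a sodium/proton exchanger, and went from 72.9 to 156 implied counts, with 1.10 (SE 0.38, adjusted p = 0.0307) in the authors' deposited table. It was 0.74 and not called with the GC trend removed.

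Genes that work beside the carriers were taken from a list of 44, of which 42 were listed for siRNA and 40 for the deletion. By the authors' deposited tables, of these 1 was higher and 1 lower after siRNA, and 3 were higher and 3 lower after the deletion. These counts are read against the 3.46% and 15.8% of all genes called, which they lie near. MFSD6, a carrier-like protein outside the SLC naming, was the one higher after siRNA, with 0.97 (SE 0.25, adjusted p = 0.00498) in the authors' deposited table. After the deletion it was at -1.63 (SE 0.66), not called in the authors' deposited table, and the difference of 2.60 passed its test (adjusted p = 0.00601). IREB2, which controls iron handling messages, was the one lower, with -0.42 (SE 0.12, adjusted p = 0.0249) in the authors' deposited table. After the deletion, the authors' deposited table has FTL, the ferritin light chain, at 0.96 (SE 0.27, adjusted p = 0.00656) and TFRC, the transferrin receptor that feeds iron into cells, at -1.07 (SE 0.39, adjusted p = 0.0455). The other iron genes of the list, FTH1, HMOX1, IREB2 and ACO1, did not pass there, with -0.19, 0.55, -0.03 and -0.22 in the authors' deposited table. The metallothioneins MT2A, MT1X and MT1E, which bind zinc in the cytosol, passed in neither table. NPTN, a chaperone of lactate carriers, fell by 1.32 on the log2 scale (SE 0.46, adjusted p = 0.035) in the authors' deposited table, while BSG, the main chaperone of SLC16A3, was at 0.39 and did not pass. ATP2A2, the calcium pump of the endoplasmic reticulum, fell by 1.71 (SE 0.32, adjusted p = 1.58e-05) in the authors' deposited table. LETM1, an ion exchanger of mitochondria, and MTCH1, an outer membrane protein related to SLC25 carriers, were higher at 0.78 (adjusted p = 0.0106) and 0.71 (adjusted p = 0.0237) in the authors' deposited table. The GC content of the transcript end was 54.8% in FTL, 54% in LETM1 and 51.2% in MTCH1, the genes higher after the deletion. In those lower it was 29.8% (NPTN), 37.8% (TFRC) and 36.6% (ATP2A2). Values with the GC trend removed are not given for these genes, and its part was not tested. None of the 6 mitochondrial channel genes was called by DESeq2 in either table, with 1 at an unadjusted p under 0.05 after siRNA and 2 after the deletion.

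The arms were then compared gene by gene, which they allow because they share no control libraries. They differ in how the agent was delivered, in time and in control, so a difference cannot be told apart from these. For 23 of 156 carriers the log2 fold changes differed at an adjusted p under 0.05 (14.7%), against 13.7% of all genes. Of these, 12 were higher in the siRNA arm (7.22% of all genes) and 11 in the deletion arm (6.49%). With the GC trend removed 19 differed, 17 with the higher value after siRNA and 2 with the higher value after the deletion. Of all genes, 10.8% differed under that setting, 817 with the higher value after siRNA and 339 after the deletion. No carrier differed with a Student t reference (29 at an unadjusted p under 0.05) or with the statistics divided by their robust SD (6 at an unadjusted p under 0.05). Of all 10891 genes, 1869 and 447 had an unadjusted p under 0.05 there, and none differed. By class, 5 metal carriers differed of 23, with 4 higher in the siRNA arm, 5 mitochondrial of 38, 3 sugar of 11, all higher in the siRNA arm, and 3 amino acid of 23.

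The GC content of the last 500 bases of a transcript, the part that this 3′ method reads, moved with the fold change in the deletion arm. Over 164 carriers Spearman's rho was 0.195, and over all 11625 genes with a GC value it was 0.303. In the siRNA arm it was 0.111 over 161 carriers and 0.0741 over all. These are descriptions across genes that share libraries. The median GC content was 55% in carriers higher after the deletion, 46.4% in those lower and 43% in those not called. Over all genes these medians were 52%, 38.2% and 41.6%. GC content varied among the carriers that fell, with SLC39A13 at 58.4% and SLC25A22 at 57.6%, above their median of 46.4%. The part of GC content in the fold changes was not tested.

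**Figure D5:**
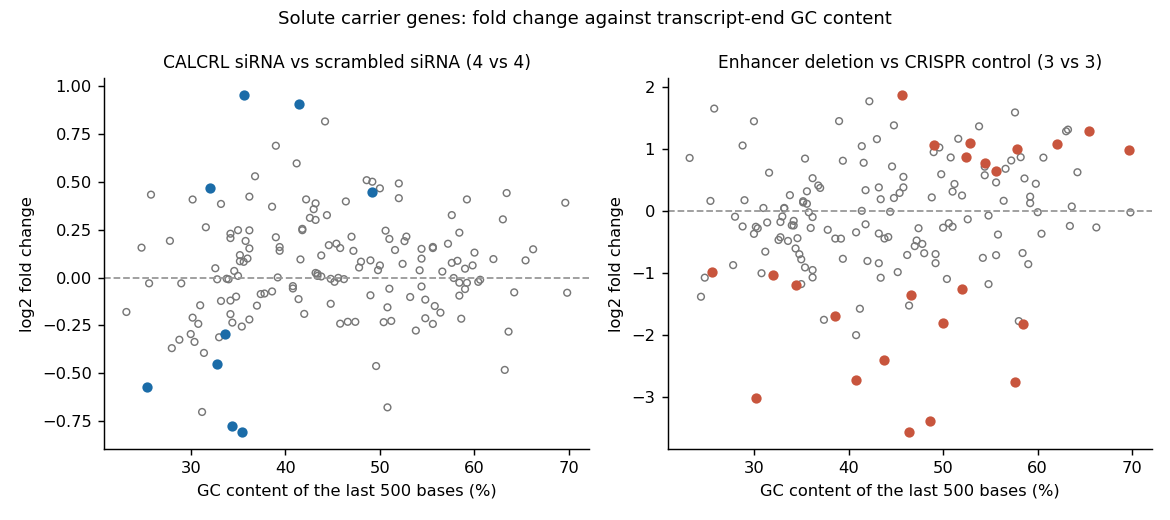
Log2 fold change of each solute carrier gene against the GC content (%) of the last 500 bases of its transcript, in the siRNA arm (left) and the deletion arm (right), on different vertical scales and without genes whose implied mean in either group was at or under 3 counts. Filled points had an adjusted p-value under 0.05, and in the deletion arm those above 0 lie at a median of 55% GC.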

How the data were processed

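RNA was measured in 14 teloHAEC libraries made with a 3′ mRNA kit (QuantSeq FWD, single-end reads of 86 cycles), per the labels' protocols. Groups came from the sample titles. The submitters' processing notes name hg19 and edgeR 3.24.3, without a role; the aligner, filters and strand setting are not given in the sources used here. The authors' deposited tables are DESeq2 comparisons, per the file names and headers, with a mean normalised count (a signal), log2 fold change, SE, Wald statistic (a score), p-value and adjusted p-value per gene. Decimal commas were read as decimal points. The deposited statistic equalled fold change over SE, and the adjusted p equalled a Benjamini-Hochberg adjustment over the rows with a p (11261 and 11830). No library values were given, so precision rests on the SE, and planned count tests were not used.

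Computed here with Python 3.11.15, pandas 2.3.3, scipy 1.17.1 and statsmodels 0.14.6 were implied group means (mean count and fold change, assuming equal weight of the groups), 95% normal intervals, and a normal test of the difference between arms, adjusted over the 10891 genes in both. The difference test and the GC step were tested on simulated data. Members, classes, lists and alternatives were chosen with earlier results of these data known. After the tables were read, SLC4A1AP, SLC7A6OS and SLC22A18AS were moved to the genes that encode no transporter. Named are all carriers called after siRNA, in both arms or between arms; after the deletion up to 4 per class and direction; the 3 with most counts in each of 4 classes; those nearest the threshold; and called partner genes. Where an implied mean was at or under 3 counts, no fold is given (4 carriers in the deletion arm); with these at the bound that 3 counts allow, no class median moved. Sequence and GC content came from GENCODE 29 (GRCh38), matched by gene ID for 98.6% and 98.3% of rows, with GC over the last 500 bases of the transcript and a lowess span of 0.3. The alternatives were a Student t reference, statistics over their robust SD, recentring on genes with a mean of at least 100, only genes with a mean of at least 50, the GC trend removed, adjusted p under 0.01, and leaving out genes whose siRNA SE was over 2 times that of the 201 genes nearest in mean.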

Additional observations from a re-analysis of the deposited data

Results flagged for a closer look

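For 23 carriers the effect of CALCRL siRNA and that of the enhancer deletion differed, by the test of the difference of their log2 fold changes (siRNA minus deletion, adjusted over all genes). All were chosen by that test, and the arms also differ in delivery, time and control.

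Among metal carriers the differences were 1.49 for SLC39A6, 2.05 for SLC39A13, 1.62 for SLC39A14 and 1.92 for SLC41A3, all with the higher value after siRNA, and -1.004 for SLC48A1. Among sugar carriers they were 3.89 for SLC37A1, 1.86 for SLC45A3 and 1.14 for SLC2A3. Mitochondrial carriers gave 3.42 for SLC25A40, 2.82 for SLC25A22, 2.68 for SLC25A5, -0.99 for SLC25A39 and -0.63 for SLC25A6.

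Amino acid carriers gave 2.17 for SLC36A1, the lysosomal exporter, -0.89 for SLC38A10 and -0.67 for SLC3A2. Carriers of nucleotide sugars gave 1.66 for SLC35A2 and -1.10 for SLC35A3. The ion carriers SLC4A7 and SLC9A8 stood at -0.74 and -1.49. The lactate exporter SLC16A3 was at -1.20, the biotin carrier SLC5A6 at -0.98, and SLC4A1AP, which encodes no transporter, at -0.79. Of the 11 differences below 0, only those of SLC35A3 and SLC4A7 passed with the GC trend removed, while all 12 above 0 did. When recentred on genes with a mean of at least 100, 8 of the 11 and all 12 passed. Those of SLC4A7, SLC25A6 and SLC48A1 did not.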

How the results depend on the processing

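No paired analysis was possible because the deposited tables give no value per library. For the same reason no replicate could be left out, and whether 1 library carries a result was not tested. Carriers called numbered 9 after siRNA, 25 after the deletion and 23 between arms. With a Student t reference each count was 0, with 19, 21 and 29 carriers at an unadjusted p under 0.05. With statistics divided by their robust SD the counts were 5, 0 and 0, with 9 carriers after the deletion and 6 between arms at an unadjusted p under 0.05. At an adjusted p under 0.01 they were 4, 12 and 6. Each other alternative kept the counts within 1.5 times, at 9 to 10, 20 to 26 and 19 to 22. The share of called carriers that were lower moved with the GC trend removed. It went from 55.6% to 44.4% after siRNA and from 60% to 90.9% after the deletion. The share of differences higher in the deletion arm went from 47.8% to 10.5%. Over all called genes these shares moved from 69.7% to 67.2%, from 53.3% to 70.7% and from 47.4% to 29.3%. With only genes with a mean of at least 50, the share of carrier differences higher in the deletion arm was 57.1%. Class medians after siRNA kept their sign in all 36 cases. After the deletion 33 of 36 did, and the others were amino acid carriers at 0.11 with the GC trend removed, and monocarboxylate carriers at 0.38 and other organic carriers at 0.35 with only genes of a mean of at least 50. Recentred, SLC25A3 after siRNA was -0.0023 and SLC46A3 after the deletion -0.041, neither called. Recentring moved the median of all genes by less than 0.1. Removing the GC trend also moved that median, from 0.003 to 0.007 after siRNA and from 0.005 to -0.062 after the deletion. For the difference between arms it went from -0.001 to 0.073. The cause of these shifts was not tested. Without counts, the depth that limits low carriers is unknown.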

Other observations

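A further 24 genes in the tables carry an SLC symbol that the choice of members leaves out, with a letter other than A or an O after SLC. Most of them belong to the SLC35B to SLC35G groups. Of these, the authors' deposited tables called 1 of 23 higher after CALCRL siRNA, where 1.05% of all genes were higher. After the deletion they called 2 of 22 lower, where 8.44% of all genes were lower. An unadjusted Wald p under 0.05 was held by 8 of the 23 after siRNA, against 1354 of all 11261 genes. After the deletion 6 of the 22 had one, against 3513 of all 11830 genes. SLC35D1, which carries UDP-glucuronic acid into the endoplasmic reticulum, rose after siRNA, with a log2 fold change of 0.87 (SE 0.24, adjusted p = 0.0152) in the authors' deposited table. SLC35B3, which carries the sulphate donor PAPS into the Golgi, fell after the deletion, with -1.64 (SE 0.48, adjusted p = 0.00934) in the authors' deposited table. SLC35F6 fell there too, with -1.27 (SE 0.34, adjusted p = 0.00509) in the authors' deposited table.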
